A study of Mus musculus with 12 samples.

Results

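Small nucleolar RNAs (snoRNAs) are short noncoding RNAs of the nucleolus, and 27 of their genes were read by the deposited adrenal array values, of 6986 genes in all. The genes were taken by symbol: a probeset counted when the platform annotation gave it exactly 1 gene symbol and that symbol began with Snora or Snord, and the probeset with the higher mean over the 12 arrays stood for a gene with several. They comprised 7 H/ACA box genes (Snora) and 20 C/D box genes (Snord), read by 28 probesets. By RefSeq GRCm38.p6 the genes encode RNAs of 105 to 128 bases for the H/ACA class and of 53 to 137 bases for the C/D class, and they lie on chromosomes 1 (8 genes), 10 (2), 11 (9), 12 (1), 13 (1), 14 (4) and 15 (2). RefSeq lists 133 Snora and Snord genes, 43 of them on these chromosomes. The deposited table covers part of the array's probesets, so the 27 members and the 6986 genes are those it held. Snord53, SNORA62 and SNORA74A, which the study named as higher in KK adrenals, were not among the 27.

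The study compared the adrenal glands of KK/HIJ mice, a strain prone to obesity and diabetes, with those of C57BL/6J mice in both sexes. Whole adrenals were snap-frozen at 21 weeks of age after a series of glucose, insulin and behavioral tests, on standard chow and with no drug or diet arm. The 4 groups were KK males (KK-M), C57 males (C57-M), KK females (KK-F) and C57 females (C57-F). In each group equal amounts of RNA from all of its mice were combined into 1 pool, and that pool was run on 3 Mouse Gene 2.0 ST arrays. The 3 arrays of a group therefore repeat 1 RNA sample, and every p-value below measures the spread between arrays, not between mice. The RNA was extracted on silica columns, which as a class retain RNAs of this length poorly, and labelled by random priming, so a probeset within an intron can also read the unspliced transcript of the gene around it.

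C/D box snoRNAs pair with ribosomal RNA and direct ribose methylation by fibrillarin, and H/ACA box snoRNAs direct pseudouridylation by dyskerin; a few members act on spliceosomal RNAs or on the cutting of the ribosomal precursor. In mammals most are encoded in introns of other genes, often genes for ribosomal proteins, translation factors or nucleolar proteins, and are released by trimming of the debranched intron. Each class assembles with its own 4 core proteins, which hold the RNA stable. The level of a snoRNA thus depends on transcription of its host, on splicing, on trimming and on protein binding.

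Some properties of the 12 arrays touch all results below. The median log2 value over all probesets lay between 3.88 and 3.99 on each array. All 8 skeletal muscle markers passed the test as higher in the KK-M pool, with a summed linear level of 1128 to 1343 on KK-M arrays, against 142 to 152 on KK-F arrays and 223 to 239 on C57-M arrays. All 7 hepatocyte markers were lower in KK than in C57 in both sexes, at 129 to 327 in KK-M against 1313 to 1390 in C57-M and at 143 to 154 in KK-F against 2125 to 2252 in C57-F. The KK-M value of 327 belonged to replicate 1 alone, the other KK-M arrays being at 170 and 129. The 4 medullary markers summed to 8119 to 9079 in KK-M against 5450 to 5909 in C57-M. In females they summed to 6656 to 6878 in KK-F against 4480 to 4632 in C57-F. The 4 adrenocortical markers summed to 11167 to 11279 in KK-F against 8210 to 8481 in C57-F. In males these summed to 6658 to 6928 in KK-M against 7294 to 7587 in C57-M. In each sex Akr1c18 was called higher and Hsd11b1 lower in KK, and Cyp11b1 and Cyp11b2 were not called. The 4 white adipocyte markers summed to 297 to 318 in KK-F against 713 to 732 in C57-F, with all 4 called lower. They summed to 570 to 597 in KK-M against 726 to 791 in C57-M. In that male comparison Gpd1 and Pnpla3 were called lower, while Slc2a4 (0.41 ± 0.13) and Trarg1 (-0.02 ± 0.10) were not called. The 4 macrophage markers summed to 1188 to 1575 in KK-F against 855 to 932 in C57-F, with 3 called higher and 1 lower, and to 1091 to 1284 in KK-M against 1750 to 1851 in C57-M. Some markers lay at the low end of the scale. On KK-F and C57 arrays the log2 values of Myh1, Myh8, Actn2, Myoz1 and Casq1 lay between 2.55 and 3.51, below the array medians. The part of these tissue markers in the snoRNA differences was not tested, and in pooled bulk RNA fewer cells of a type and less RNA per cell cannot be told apart.

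Members that share a host share its transcription start, so the starts of the 3 hosts whose snoRNAs were all above the filter are shown here. They are 2410006H16Rik, a noncoding transcript that contains Snord49a, Snord49b and Snord65, Nop58, which contains Snord11 and Snord70, and Ncl, which contains Snora75 and Snord82. Each run gives 250 bases before and 30 bases from the RefSeq start, in the direction of the gene, with build GRCm38.p6 coordinates. Capitals mark CTTTC, a pyrimidine run of the kind with which many snoRNA host transcripts begin.
2410006H16Rik, chr11:62602627-62602906, plus strand: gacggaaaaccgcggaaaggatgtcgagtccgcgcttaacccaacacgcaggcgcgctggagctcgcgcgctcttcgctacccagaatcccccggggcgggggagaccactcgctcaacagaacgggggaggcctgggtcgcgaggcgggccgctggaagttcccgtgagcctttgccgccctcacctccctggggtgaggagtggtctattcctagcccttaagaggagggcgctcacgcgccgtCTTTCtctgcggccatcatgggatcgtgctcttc
Nop58, chr1:59684756-59685035, plus strand: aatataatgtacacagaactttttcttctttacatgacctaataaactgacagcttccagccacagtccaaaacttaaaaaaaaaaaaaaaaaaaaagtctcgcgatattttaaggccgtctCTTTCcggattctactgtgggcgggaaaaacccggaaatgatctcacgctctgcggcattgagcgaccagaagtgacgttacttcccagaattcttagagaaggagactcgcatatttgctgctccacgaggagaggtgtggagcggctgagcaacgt
Ncl, chr1:86359426-86359705, minus strand: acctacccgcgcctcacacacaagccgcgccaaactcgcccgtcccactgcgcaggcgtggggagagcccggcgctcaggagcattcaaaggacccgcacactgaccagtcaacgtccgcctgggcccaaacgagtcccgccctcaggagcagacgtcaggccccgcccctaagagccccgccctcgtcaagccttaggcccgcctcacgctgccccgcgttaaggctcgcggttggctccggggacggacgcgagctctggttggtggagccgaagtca
The 2410006H16Rik window held CTTTC at position -4 from the annotated start and the Nop58 window held it at position -128. The Ncl window held it on neither strand. Of 32851 RefSeq mouse promoters cut to the same length, 33.1% held these letters on the gene strand and 55.1% on either strand, so a match is a description of the window and no more.

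The level of each gene on each array is shown in the plot of the 27 genes.

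**Figure D1:**
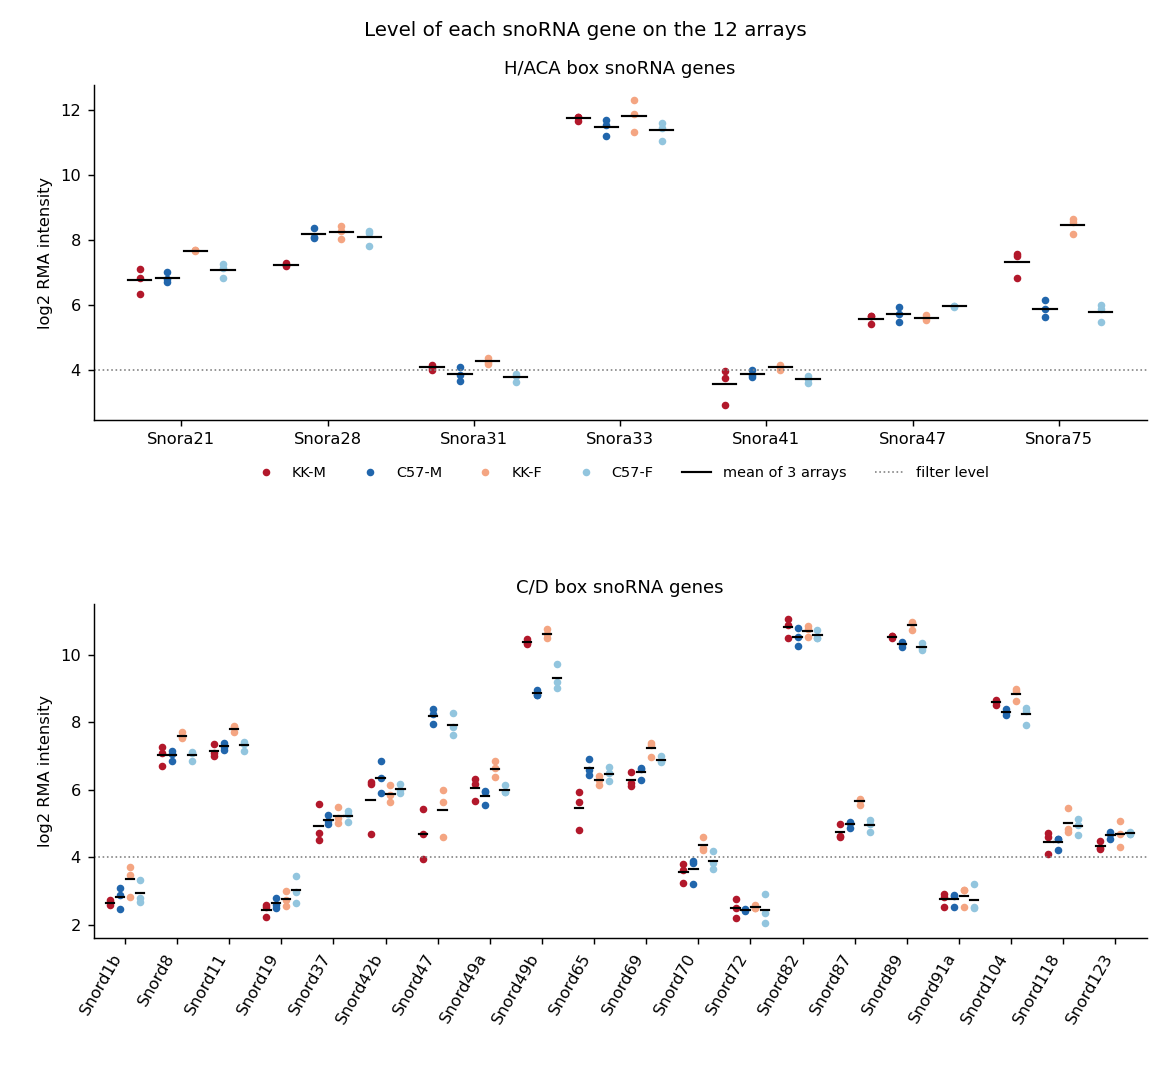
Log2 RMA intensity (vertical axis) of the 7 H/ACA genes (upper panel) and the 20 C/D genes (lower panel), with 1 point per array, a black bar for the mean of the 3 arrays of a pool and a dotted line at the filter level of 4. Snord47 lay lower and Snora75 and Snord49b lay higher on all 6 KK arrays than on all 6 C57 arrays.

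A gene entered the test when its mean reached a log2 value of 4 in at least 1 group. All 7 H/ACA genes and 16 of the 20 C/D genes did. Snord1b, Snord19, Snord72 and Snord91a did not, and their arrays lay between 2.05 and 3.71. Of the 23 that passed, 20 were above the level in all 4 groups. Snora41 and Snord70 passed through KK-F alone and Snora31 through KK-M and KK-F alone, so a higher value in those groups is partly built into their entry. Differences were called when they were at least 1.4-fold with an adjusted p under 0.05 in limma, a linear model across all 4414 genes that passed. Differences below are log2 values ± SE, the first named group minus the second, and each unit is a factor of 2.

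In males 5 members differed between the strains, 2 higher and 3 lower in KK-M than in C57-M. This was 21.7% of the 23 tested members, against a background of 20.4% of all genes tested (7.05% higher and 13.4% lower). The split over all genes, 311 of 902 called higher, moved to 414 of 843 when each array was centred on its median and to 392 of 812 after a further quantile normalization, with the same 5 members among those called each time. In females 11 members differed, 10 higher and 1 lower in KK-F than in C57-F. This was 47.8% of the tested members, against 18.6% of all genes (9.56% higher and 9.06% lower). Over all 27 members, with no filter, the median difference was -0.09 in males and 0.37 in females, against 0.01 in both sexes over all 6986 genes. With the filter dropped, the same 5 and 11 members were called, against 13.5% and 12.0% of all genes. Snord47, Snora75 and Snord49b were called in both sexes, each in 1 direction.

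**Figure D2:**
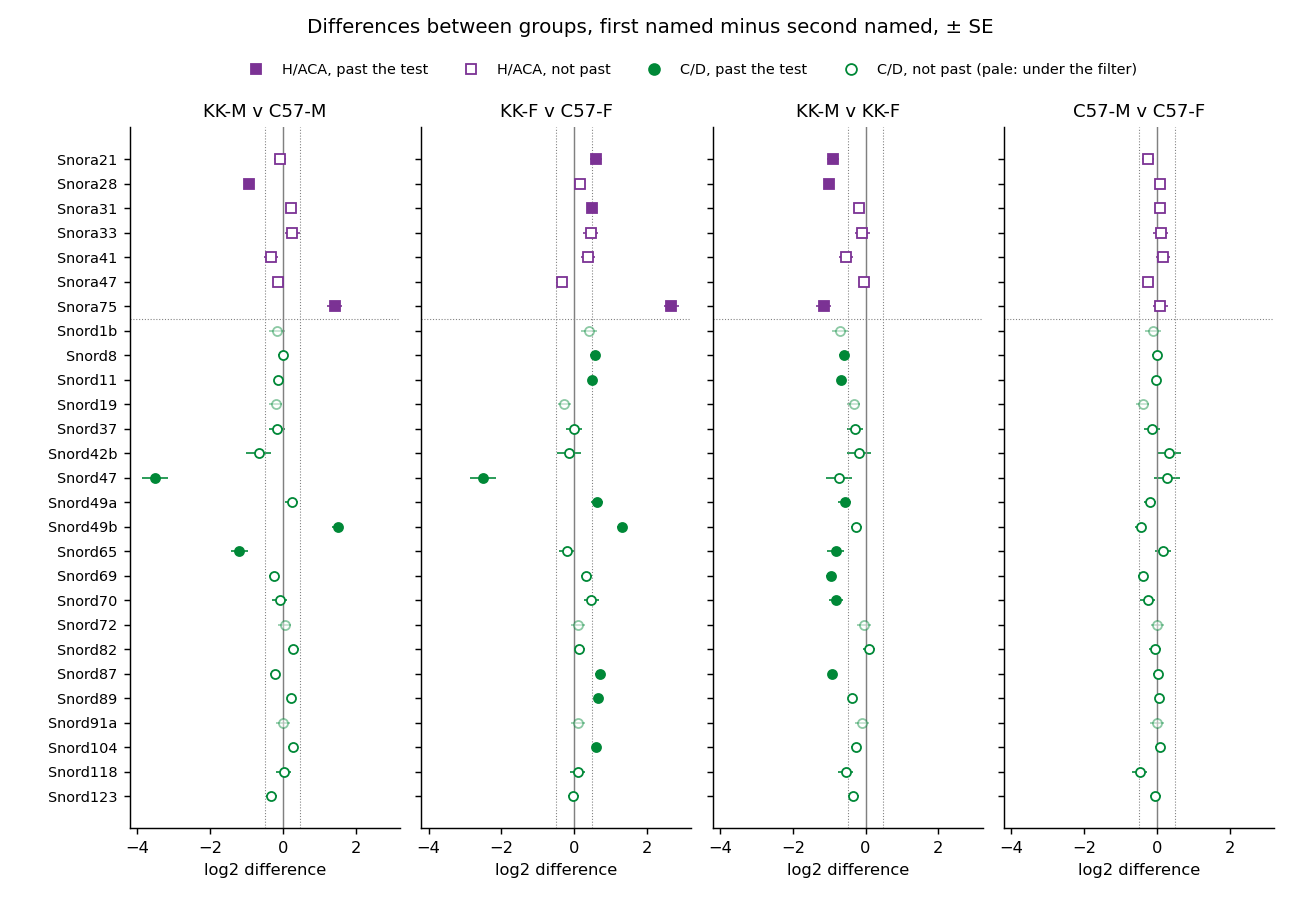
Log2 difference ± SE (horizontal axis) of each of the 27 snoRNA genes in the 4 pairwise comparisons, the first named group minus the second. Filled symbols passed the test, dotted lines mark a 1.4-fold difference and the scale is the same in all panels. The KK-F v C57-F panel leans to the right with 10 filled symbols above 0, and the KK-M v KK-F panel to the left with 10 filled symbols below 0.

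Snord47 gave the largest strain difference of the 27 members in males, and was the only member called lower in KK in both sexes. It is a C/D box RNA that in human guides methylation of large-subunit rRNA, and it is encoded within Gas5, a noncoding gene of which little but its snoRNAs is conserved. Its arrays read 5.43, 4.69 and 3.96 in KK-M, against 8.24, 8.41 and 7.94 in C57-M. The female arrays read 4.61, 5.63 and 6.00 in KK-F, against 7.85, 7.62 and 8.29 in C57-F. No KK array reached the lowest C57 array in either sex, and the KK arrays were also the more scattered (SD 0.73 and 0.72, against 0.24 and 0.34, n = 3 each). The difference was -3.50 ± 0.36 in males (limma adjusted p = 1.4e-05) and -2.51 ± 0.36 in females (adjusted p = 0.00021). No probeset with 1 symbol read Gas5, so no host value stands beside it. Snord47, like Snora75 and Snord49b below, was read by 1 probeset, and the match of these probes to the KK sequence was not tested.

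Snora75 moved the opposite way. It is an H/ACA box RNA within the gene for nucleolin, the abundant nucleolar protein of rRNA transcription and processing. It read 7.52, 7.59 and 6.85 in KK-M, against 5.88, 6.15 and 5.64 in C57-M. In females it read 8.18, 8.67 and 8.55 in KK-F, against 5.48, 6.01 and 5.88 in C57-F. Every KK array was above every C57 array, and every KK-F array was above every KK-M array. The difference was 1.43 ± 0.21 in males (adjusted p = 0.00021) and 2.67 ± 0.21 in females (adjusted p = 1.1e-06).

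Snord49b, a C/D box RNA that in human guides methylation of large-subunit rRNA, was likewise higher in KK. It read 10.48, 10.32 and 10.35 in KK-M, against 8.81, 8.97 and 8.82 in C57-M. It read 10.49, 10.63 and 10.78 in KK-F, against 9.20, 9.02 and 9.73 in C57-F. The strains did not overlap in either sex, and the difference was 1.52 ± 0.15 in males (adjusted p = 8.5e-06) and 1.32 ± 0.15 in females (adjusted p = 2.8e-05). Over both sexes together 4 members differed between strains, 17.4% of those tested, against 15.5% of all genes. These were Snora75 (2.05 ± 0.15), Snord49b (1.42 ± 0.11), Snord47 (-3.01 ± 0.26) and Snord65 (-0.70 ± 0.16). When the fit used only the 4 pool means, the first 3 remained called and Snord65 did not (adjusted p = 0.14).

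Snora28 and Snord65 were lower in KK-M than in C57-M with no call in females. Snora28, an H/ACA guide for small-subunit rRNA in human, read 7.30, 7.21 and 7.23 in KK-M, against 8.09, 8.38 and 8.08 in C57-M, a difference of -0.94 ± 0.13 (adjusted p = 0.00017). All KK-M arrays lay below all C57-M arrays by more than the spread within either pool. In females it read 8.05, 8.29 and 8.43 in KK-F, against 7.84, 8.21 and 8.28 in C57-F, and those groups overlapped. Snord65, a C/D guide for small-subunit rRNA in human, read 5.92, 5.63 and 4.81 in KK-M, against 6.58, 6.90 and 6.45 in C57-M (-1.19 ± 0.23, adjusted p = 0.0015). Its female arrays read 6.40, 6.30 and 6.13 in KK-F, against 6.51, 6.25 and 6.68 in C57-F (-0.20 ± 0.23) and overlapped. For Snord65 the strain by sex interaction was not called (-0.99 ± 0.32, limma adjusted p = 0.052).

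In females 8 further members were higher in KK-F than in C57-F, each by less than Snora75 or Snord49b. Snord87, a C/D guide for large-subunit rRNA in human, read 5.74, 5.69 and 5.54 in KK-F, against 5.10, 4.76 and 4.99 in C57-F (0.71 ± 0.12, adjusted p = 0.00062). Snord89, for which RefSeq places no other gene around it, read 10.75, 10.99 and 10.95 in KK-F, against 10.16, 10.22 and 10.35 in C57-F (0.65 ± 0.09, adjusted p = 0.00012). The groups did not overlap in either gene. Snord49a, the neighbor of Snord49b, read 6.38, 6.64 and 6.86 in KK-F, against 5.94, 5.93 and 6.13 in C57-F (0.63 ± 0.17, adjusted p = 0.014). Its call was lost without KK-F replicate 3 (adjusted p = 0.059). Snord104 (0.61 ± 0.13), Snora21 (0.59 ± 0.17), Snord8 (0.58 ± 0.14), Snora31 (0.50 ± 0.12) and Snord11 (0.50 ± 0.11) completed the group, with adjusted p between 0.0032 and 0.016. Snord8 is the member of this group known to guide methylation of a spliceosomal RNA rather than of rRNA. Snora31 and Snord11 stood just above the 1.4-fold threshold, and with each array centred on its median they fell to 0.45 each and were no longer called. Both were also lost without KK-F replicate 1 (0.45 and 0.46) or C57-F replicate 1 (0.42 and 0.42), and Snord11 without KK-F replicate 2 (0.48). Snord104 was lost without C57-F replicate 2 (0.46) and Snora21 without C57-F replicate 3 (0.47, adjusted p = 0.067) and, on all arrays, without moderation of the variance (adjusted p = 0.051).

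Between the sexes of the KK strain (KK-M v KK-F) 10 members were lower in males and none was higher. This was 43.5% of the tested members, against 11.6% of all genes called lower and 7.27% called higher. Here 321 of 831 calls over all genes were higher, against 463 of 788 after median centring and 404 of 786 after quantile normalization, each of which left 8 members lower and none higher, without Snord49a and Snord8. Over all 27 members 26 had a difference below 0, with a median of -0.53, against 0.00 over all genes. In 16 of the 27 every KK-M array lay below every KK-F array, a pattern seen in 19.8% of all genes. Without a filter 11 members were called lower, against 7.36% of all genes. Beside these counts stand the muscle markers, which summed to 1128 to 1343 on the KK-M arrays against 142 to 152 on the KK-F arrays. The 4 adrenocortical markers had a median difference of 0.02, with Akr1c18, a progesterone-inactivating enzyme, at -7.40 ± 0.26 and Cyp11b2, the aldosterone synthase, at 0.997 ± 0.09 (both called), and Cyp11b1 and Hsd11b1 at -0.01 and 0.06. The part of these markers in the snoRNA difference was not tested.

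The differences covered both classes. Besides Snora75 (-1.15 ± 0.21, adjusted p = 0.0011), Snora28 was lower by the values given above (-1.01 ± 0.13, adjusted p = 9.6e-05). Snord69, a C/D guide for large-subunit rRNA in human, read 6.52, 6.10 and 6.21 in KK-M, against 7.40, 7.33 and 6.96 in KK-F (-0.96 ± 0.14, adjusted p = 0.00025). Its groups did not overlap. Snord87 read 4.98, 4.60 and 4.64 in KK-M, against 5.74, 5.69 and 5.54 in KK-F (-0.91 ± 0.12, adjusted p = 8.8e-05). Snora21, an H/ACA guide for large-subunit rRNA in human, read 6.85, 7.11 and 6.36 in KK-M, against 7.70, 7.69 and 7.66 in KK-F (-0.90 ± 0.17, adjusted p = 0.0011). Neither gene overlapped between the groups, and the KK-F arrays of Snora21 differed among themselves by no more than 0.04. The other members called were Snord65 (-0.82 ± 0.23), Snord70 (-0.81 ± 0.20), Snord11 (-0.66 ± 0.11), Snord8 (-0.58 ± 0.14) and Snord49a (-0.57 ± 0.17). Of the 10, 6 were also called higher in KK-F than in C57-F and 3 were called in KK-M against C57-M, comparisons that share the KK-F or the KK-M arrays with this one.

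The arrays of the KK-M pool were not equal in this respect. The mean over the 27 members was 6.18, 6.01 and 5.74 on the 3 KK-M arrays, against 6.41, 6.50 and 6.49 on the KK-F arrays. KK-M replicate 3 had the lowest value of its pool in 18 of the 27 members, among them Snora41 (2.95, with 3.97 and 3.78 on its repeats), Snord42b (4.68, with 6.24 and 6.17) and Snord65 (4.81, with 5.92 and 5.63). Without that array 9 members were called lower in this comparison, and all 9 belonged to the 10. Snord49a was the call lost (-0.38, adjusted p = 0.083), as it was without KK-F replicate 2 (-0.57, adjusted p = 0.055) or KK-F replicate 3 (-0.46, adjusted p = 0.088). Snord65 kept its call without KK-M replicate 3 with a smaller difference (-0.50) and was lost without KK-F replicate 1 (-0.76, adjusted p = 0.051), and Snord8 fell short of the 1.4-fold threshold without KK-M replicate 1 (-0.42). Without moderation of the variance Snord65 (adjusted p = 0.059) and Snord49a (adjusted p = 0.066) also lost their calls. C57-M replicate 3 was also lowest in 18 of 27, but its mean of 5.99 lay closer to the 6.15 and 6.21 of its repeats.

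Within the C57 strain none of the 23 members differed between C57-M and C57-F by the same limma test, against 7.07% of all genes. At an unadjusted p under 0.05 there were 4 of the 23, a smaller share than the 1107 of 4414 genes tested. The same contrasts without moderation of the variance also called none of the members. The 4 were Snord118 (-0.47 ± 0.20), Snord49b (-0.45 ± 0.15), Snord69 (-0.38 ± 0.14) and Snora47 (-0.25 ± 0.11), with adjusted p between 0.037 and 0.12. Snord49b alone passed the adjusted p, and its difference fell short of the 1.4-fold threshold. Snord118 encodes U8, a C/D box RNA that is needed for maturation of the large-subunit rRNA and is transcribed from its own promoter. It read 4.55, 4.55 and 4.21 in C57-M, against 4.96, 4.65 and 5.12 in C57-F, and was called in no comparison.

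The strain difference itself differed between the sexes for 4 members, all with a lower value in males. This was 17.4% of the tested members, against 10.1% of all genes called lower and 3.81% called higher. Of 612 calls over all genes 168 were higher, against 314 of 560 after median centring and 248 of 522 after quantile normalization, and the same 4 members were called lower under both. The difference in males minus that in females was -1.24 ± 0.29 for Snora75 (adjusted p = 0.013), -1.09 ± 0.19 for Snora28 (adjusted p = 0.002), -0.93 ± 0.17 for Snord87 (adjusted p = 0.0025) and -0.63 ± 0.15 for Snord11 (adjusted p = 0.015). For Snora75 both sexes were higher in KK and the males by less. For Snora28 the males alone were lower. For Snord87 and Snord11 the females alone were higher, the male differences being -0.23 ± 0.12 and -0.13 ± 0.11. For Snord47 and Snord49b the same test did not pass (-0.996 ± 0.52 and 0.20 ± 0.21, adjusted p = 0.2 and 0.55). Leaving out KK-M replicate 1, the array with the higher hepatocyte markers, 7 members were called, the 4 among them, against 683 of all genes.

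The H/ACA and C/D classes were set side by side as lists, with no test between them. In KK-F against C57-F 3 of 7 tested H/ACA genes and 7 of 16 tested C/D genes were higher, and 0 and 1 were lower. In KK-M against KK-F 3 of 7 and 7 of 16 were lower. Those counts include Snora31 (higher in KK-F) and Snord70 (lower in KK-M), directions partly built into their entry through the filter. The median difference over all members of a class was 0.46 for H/ACA and 0.24 for C/D in KK-F against C57-F, and -0.53 and -0.45 in KK-M against KK-F. In KK-M against C57-M the medians were -0.07 and -0.11. The share of tested genes called either way was 42.9% for H/ACA and 50.0% for C/D in KK-F against C57-F, and 42.9% and 43.8% in KK-M against KK-F. Each class contained members that opposed each other by strain in males (Snora75 and Snora28, Snord49b and Snord47).

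**Figure D3:**
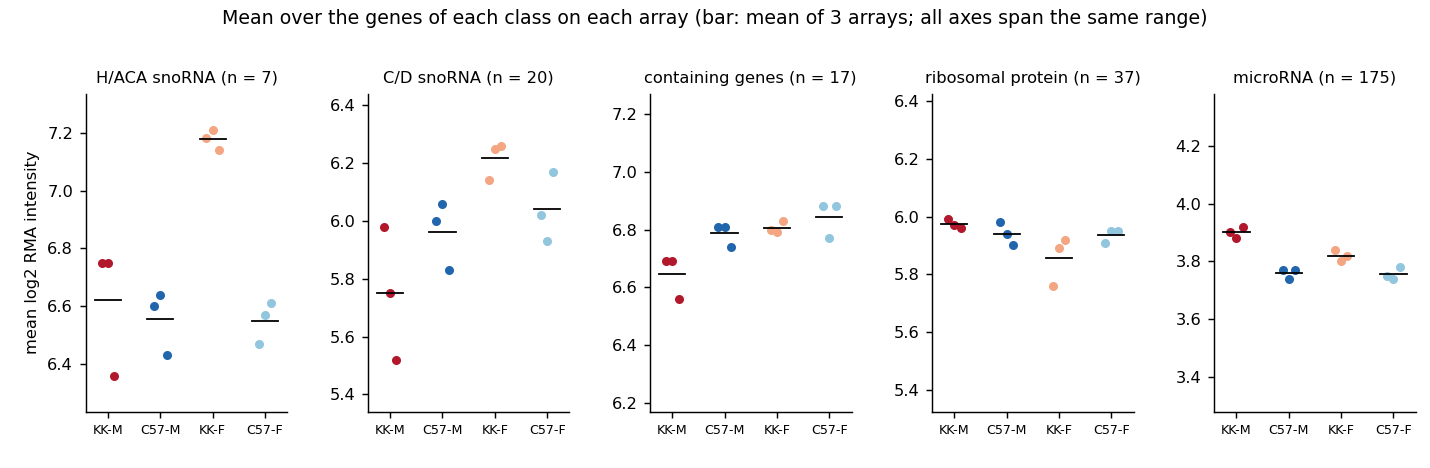
Mean log2 RMA intensity (vertical axis, each panel spanning the same range) over the genes of 5 classes on each array, with a bar for the mean of 3 arrays. The H/ACA mean was 7.14 to 7.21 on KK-F arrays and 6.36 to 6.75 on all others, while ribosomal protein genes stayed between 5.76 and 5.99. The H/ACA mean includes Snora75, at 2.67 in KK-F against C57-F, where the class median was 0.46. The C/D mean includes Snord47, at -2.51, where the class median was 0.24.

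The mean over the H/ACA genes was 7.14 to 7.21 on the KK-F arrays, 6.36 to 6.75 on the KK-M arrays, 6.43 to 6.64 on the C57-M arrays and 6.47 to 6.61 on the C57-F arrays. The mean over the C/D genes was 6.14 to 6.26 in KK-F and 5.93 to 6.17 in C57-F, which overlapped, and 5.52 to 5.98 in KK-M and 5.83 to 6.06 in C57-M, which overlapped as well. Both class means lean on single genes. In KK-F against C57-F Snora75 differed by 2.67, where the H/ACA median was 0.46, and Snord47 by -2.51, where the C/D median was 0.24. Other gene classes of the same arrays are given for scale. Over 175 microRNA genes the median difference was 0.04 in KK-F against C57-F and 0.08 in KK-M against KK-F. Only 70 of these passed the filter. Of the 70, 18.6% were called higher and 4.29% lower in KK-F against C57-F, against 9.56% and 9.06% of all genes. In KK-M against KK-F 22.9% were called higher and 4.29% lower, against 7.27% and 11.6%. Over 37 ribosomal protein genes, many of which host snoRNAs, the median difference was -0.02 and 0.02. Over the 17 measured genes that contain a member it was 0.00 and -0.11.

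RefSeq placed 25 of the 27 members inside another gene and 21 inside one that the arrays measured, which allowed each snoRNA to be read beside its host. The comparison does not tell spliced from unspliced host RNA.

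**Figure D4:**
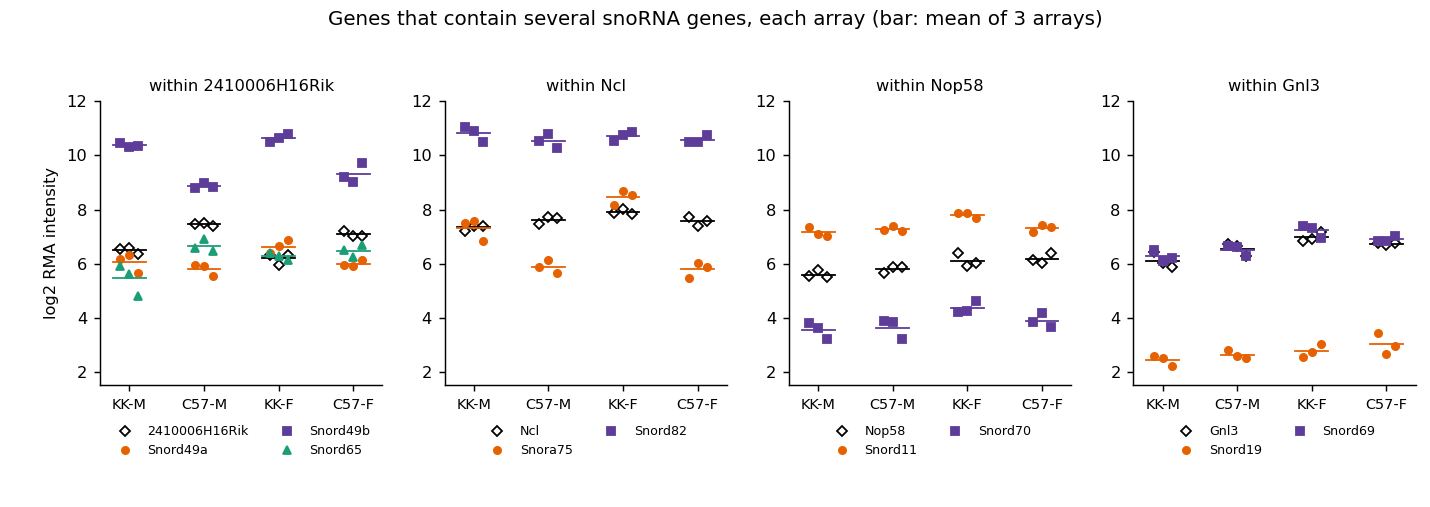
Log2 RMA intensity (vertical axis) on each array of the 4 genes that contain several of the snoRNA genes (open diamonds) and of those snoRNA genes (filled symbols), with a bar for the mean of 3 arrays. Snord49b and its host 2410006H16Rik differ between the strains in opposite directions, whereas Snord69 and its host Gnl3 run together.

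2410006H16Rik, the host of Snord49a, Snord49b and Snord65, read 6.55, 6.56 and 6.35 in KK-M, against 7.48, 7.50 and 7.39 in C57-M. It read 6.31, 5.94 and 6.33 in KK-F, against 7.22, 7.01 and 7.02 in C57-F. The host was thus lower on every KK array in both sexes, by -0.97 ± 0.11 in males (adjusted p = 3.6e-05) and -0.89 ± 0.11 in females (adjusted p = 7.8e-05). Snord49b was higher in both sexes, Snord65 was lower in males, and Snord49a was higher in females (0.24 ± 0.17 in males, not called). Snord49b was thus called in both sexes, Snord65 in males alone and Snord49a in females alone. Only Snord65 had the sign of the host's difference.

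Ncl read 7.22, 7.40 and 7.39 in KK-M, against 7.46, 7.73 and 7.67 in C57-M, and 7.86, 8.03 and 7.84 in KK-F, against 7.74, 7.41 and 7.59 in C57-F. Its strain differences of -0.29 ± 0.11 in males and 0.33 ± 0.11 in females were not called, while Snora75 inside it was called in both. Snord82, the other snoRNA inside Ncl, differed by 0.29 ± 0.16 and 0.14 ± 0.16 and was called in neither. In KK-M against KK-F both Ncl (-0.57 ± 0.11, adjusted p = 0.0015) and Snora75 were lower, and Snord82 was not (0.10 ± 0.16).

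In KK-M against KK-F some other hosts were lower together with their snoRNAs. Gnl3, which encodes the nucleolar protein nucleostemin, differed by -0.87 ± 0.15 (adjusted p = 0.00065), beside -0.96 for Snord69. Snhg6, a noncoding host, differed by -1.12 ± 0.16 (adjusted p = 0.00019), beside -0.91 for Snord87. Nop58, which encodes a core protein of the C/D particle and contains Snord11 and Snord70, differed by -0.52 ± 0.14 (adjusted p = 0.012), beside -0.66 and -0.81. Of the 10 pairs of a member called in this comparison and a measured containing gene, 5 had the containing gene called as well and all 5 in the same direction. These 5 pairs hold 4 containing genes, since Nop58 stands in 2 of them. Of the 15 tested genes that contain a member 26.7% were called lower here and 6.67% higher, against 11.6% and 7.27% of all genes. The gene called higher was Tpt1 (0.86 ± 0.11), whose Snora31 was not called (-0.19 ± 0.12). Among the other pairs 2410006H16Rik differed by 0.29 ± 0.11 (not called), beside -0.57 for Snord49a and -0.82 for Snord65. Mcmdc2, which also contains Snord87, was under the filter and could not be called. In the strain comparisons 2 of 4 pairs with a called member in males and 4 of 8 in females had both genes called. Both of those male pairs and 2 of those 4 female pairs hold 2410006H16Rik. Of the 15 tested containing genes 20.0% were called in males and 33.3% in females, against 20.4% and 18.6% of all genes. In each sex 1 pair with both genes called ran in the same direction. In females that pair was Snord87 with Snhg6 (0.64 ± 0.16, adjusted p = 0.0085). Eif5 and Chd8, the translation initiation factor gene around Snora28 and the chromatin remodeler gene around Snord8, had differences between -0.20 and 0.12 in all comparisons while their snoRNAs were called. Tpt1 ran against Snora31 in females, at -0.71 ± 0.11 (adjusted p = 0.00045), beside 0.50 for the snoRNA.

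Of the core proteins that bind the snoRNAs only Nop58 of the C/D particle and Nhp2 of the H/ACA particle were measured by a probeset with 1 symbol. Nhp2 read 5.69, 5.69 and 5.39 in KK-M, against 6.23, 6.32 and 6.24 in KK-F (-0.67 ± 0.10, adjusted p = 0.0003). It was not called between the strains, with 5.58, 5.85 and 5.78 in C57-M and 5.89, 5.93 and 5.80 in C57-F. None of the 5 tested genes for snoRNP assembly and snoRNA processing was called in any pairwise comparison. Of 17 tested genes of early ribosome biogenesis, 5 were lower and none higher in KK-M against KK-F, or 29.4% against 11.6% of all genes. They included Ncl, Utp6 (-0.55 ± 0.10) and Utp20 (-0.53 ± 0.10), whose products belong to the complex that processes the small-subunit precursor, and Ddx21, a nucleolar RNA helicase (-0.61 ± 0.11). In KK-M against C57-M 3 of the 17 were lower (17.6%, against 13.4% of all genes) and in KK-F against C57-F 2 were lower (11.8%, against 9.06%), with none higher in either.

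The remaining members gave values with no call. Snora33, within the ribosomal protein gene Rps12, read 11.78, 11.80 and 11.67 in KK-M, against 11.71, 11.54 and 11.20 in C57-M, and 12.30, 11.87 and 11.34 in KK-F, against 11.46, 11.06 and 11.62 in C57-F. The strains overlapped in both sexes. A second, dimmer probeset of this gene did separate them. It read 4.83, 5.13 and 5.0 in KK-M, against 3.85, 3.80 and 3.84 in C57-M (a difference of 1.16), and 5.38, 5.65 and 5.46 in KK-F, against 4.44, 4.11 and 4.74 in C57-F (1.07). Rps12 itself was higher in KK in both sexes, by 0.97 ± 0.09 in males (adjusted p = 5.1e-06) and 0.73 ± 0.09 in females (adjusted p = 5.6e-05). The main probeset gave 0.27 ± 0.21 and 0.46 ± 0.21. Between the sexes the dimmer probeset read lower on every male array in both strains, by -0.51 in KK-M against KK-F and -0.60 in C57-M against C57-F, where the main probeset gave -0.09 and 0.10 and its arrays overlapped. The 2 probesets of Snora33 thus disagree in size and, between the C57 sexes, in direction.

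Snord82 read 11.07, 10.89 and 10.51 in KK-M, against 10.52, 10.80 and 10.27 in C57-M, and 10.54, 10.76 and 10.87 in KK-F, against 10.51, 10.49 and 10.74 in C57-F, with overlap in both sexes. Snord37, within the gene for elongation factor Eef2, Snord42b, within Rpl23a, and Snord123, within the noncoding gene Snhg18, had strain differences between -0.66 and 0.00, none of them called. Snora41 (within Eef1b2) and Snora47 (within Zbed3) were likewise called in no comparison. In all, 15 of the 27 members were called in at least 1 pairwise comparison, 65.2% of the 23 tested, against 38.6% of all genes tested. Of the 15, 4 were H/ACA and 11 C/D genes. The 15 include Snora31 and Snord70, whose called directions were partly built into their entry. A further 8 passed the filter without a call and 4 did not pass it.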

How the data were processed

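The authors hybridised adrenal RNA pools to Mouse Gene 2.0 ST arrays, and per the labels and methods the values are log2 intensities after RMA in Partek, that is background correction, quantile normalization and summarization of probes. The deposited table analysed here held log2 values of 16378 probesets, part of those on the array. Of these, 7358 had 1 gene symbol, 456 had several and 8564 had none. The members and gene lists were chosen with earlier results of these data known. The 12 arrays entered 1 fit of 4 group means (limma 3.58.1, R 4.3.3), from which 4 pairwise contrasts, the interaction of strain and sex and the mean strain difference were tested with moderated variances (8 residual and 4.84 prior degrees of freedom). P-values were adjusted by Benjamini-Hochberg, jointly over the 4 pairwise contrasts. Host genes were RefSeq GRCm38.p6 genes whose span contains the snoRNA gene, without regard to strand. All 27 members matched RefSeq by gene ID. Named members were, per contrast, up to 5 each way with the largest called difference, members of shared hosts, those with the brightest probesets of each class and those with disagreeing probesets. The number of arrays limits the precision. Scripts were tested on simulated data. Alternatives covered the filter, scaling, variance model, fold threshold, probeset summary, adjustment and each array left out. Probe sequences were not used here, so their match to the KK genome was not tested for any gene. The genome build behind the probesets is not given in the sources used here.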

Additional observations from a re-analysis of the deposited data

Results flagged for a closer look

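The strain difference differed between the sexes for 4 snoRNA genes by the limma interaction test. This was 17.4% of the members tested, near the 13.9% of all genes called. The value (KK-M minus C57-M, minus KK-F minus C57-F, log2) was -1.24 for Snora75, -1.09 for Snora28, -0.93 for Snord87 and -0.63 for Snord11. Snora75 was higher in KK in both sexes (1.43 in males and 2.67 in females), and its interaction was no longer called without moderation of the variance (adjusted p = 0.05, rounded). Snora28 was lower in KK males (-0.94) and differed by 0.15 in females. Snord87 and Snord11 were higher in KK females (0.71 and 0.50) and differed by -0.23 and -0.13 in males.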

How the results depend on the processing

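The 34 differences called for members were recomputed under each alternative that tested the gene, and none changed sign. Snord70 was not tested with a filter at 5 or on the mean of 12 arrays, nor Snora31 with a filter at 5. Outside a fold threshold of 2, 24 of the 34 passed under every alternative that tested them, Snord47, Snora75 and Snord49b by strain among them. With arrays left out in turn, the count of members changed ranged from 5 to 6 in KK-M v C57-M, 9 to 11 in KK-F v C57-F, 9 to 13 in KK-M v KK-F, 0 to 1 in C57-M v C57-F, 4 to 7 in the interaction and 4 to 6 in the mean strain difference. In the same order the counts over all genes were 837 to 998, 811 to 846, 787 to 905, 300 to 338, 478 to 683 and 688 to 734. The highest interaction count of members (7) came without KK-M replicate 1, where 683 of all genes were called. In C57-M v C57-F, 1 member was called without C57-M replicate 2, C57-F replicate 1 or C57-F replicate 2, and 1 with no fold threshold. In that order 315, 338, 305 and 730 of all genes were called. The interaction gave 8 members with a filter at 5, 8 with a variance trend and 2 at a fold of 2, against 612, 681 and 131 of all genes. A fold of 2 left 3 members in KK-F v C57-F and 2 in KK-M v KK-F, against 184 and 155 of all genes. With no fold threshold the mean strain difference gave 12 of 23 members, against 2006 of 4414 genes. The cause of these changes was not tested.

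Over all genes tested, deviations of same-numbered arrays correlated between -0.098 and 0.122 (median -0.001). This does not cover the members apart. Replicate 3 was lowest in 18 of the 27 members in KK-M and 18 in C57-M, and in 11 in KK-F and 2 in C57-F. With the replicate block 7 members were called in the interaction and 11 in KK-M v KK-F, against 622 and 827 of all genes. With 3 arrays of 1 pool a group, the precision is that of repeat arrays.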

Other observations

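Probesets annotated with several genes, a snoRNA among them, were left out of the comparisons because no single gene can be named for them. There were 7. None had all KK arrays above all C57 arrays by 1.4-fold or more in either sex. 1 of them had all KK-M arrays below all C57-M arrays, with means of 3.61 and 4.51.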
